A study of Saccharomyces cerevisiae with 18 samples.

Results

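The genes described here are the 7 genes by which baker's yeast takes up iron bound to siderophores: FIT1, FIT2 and FIT3, and the transporters ARN1, ARN2, SIT1 and ENB1. They were chosen by name, and all 7 were found by their gene symbols among the 6713 open reading frames of the count table. Saccharomyces cerevisiae makes no siderophores, the small chelators that microbes release to bind ferric iron, but it captures those of other species. The Fit proteins are mannoproteins anchored in the cell wall that help to hold siderophore-bound iron there. The 4 transporters carry the intact complex into the cell and differ in substrate: Arn1 takes ferrichromes, Arn2 triacetylfusarinine C, Sit1 hydroxamates such as ferrioxamine B, and Enb1 the bacterial catecholate enterobactin. All 7 belong to the iron regulon, which the transcription factor Aft1, with its relative Aft2, switches on when iron is scarce by binding promoter sites with a CACCC core.

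Sequencing of mRNA and of ribosome footprints covered 9 lysates of yeast in the BY4741 background (MATa his3delta1 leu2delta0 met15delta0 ura3delta0, shared by every strain), which gave 18 libraries. The wild type (wt) was compared with Δtma20 and Δtma64, in which a KanMX4 cassette replaced TMA20 or TMA64, and with ΔΔtma20tma64, in which KanMX4 replaced TMA20 and HygMX4 replaced TMA64. Both genes encode factors of ribosome recycling and re-initiation. Cells were grown to exponential phase at 30 °C in rich YPD or minimal SD medium and received cycloheximide at 100 µg/ml for 3 min before harvest. The labels give SD as yeast nitrogen base with glucose and no amino acids, whereas the study's methods add a complete amino acid supplement. YPD was represented by 5 lysates (WT1 and WT2 of wt and 1 of each mutant) and SD by 4 lysates, 1 of each strain. A mutant in a given medium is thus a single culture, and nothing shows that the strains were represented by more than 1 clone. RNA-Seq measured oligo(dT)-selected mRNA, and Ribo-Seq the mRNA fragments protected by ribosomes (footprints), so the footprint count of a gene follows both its mRNA and its translation.

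Counts on open reading frames came to 5608491 to 11388027 per RNA-Seq library and 1668588 to 23532664 per Ribo-Seq library. The shallowest footprint libraries were Δtma20 in SD (1668588 counts) and wt in SD (2337313 counts), and the deepest was ΔΔtma20tma64 in SD. Counts of the deleted genes went with the labels in all 18 libraries (TMA20 at most 16 where deleted and at least 286 elsewhere, TMA64 at most 7 and at least 133). Levels are given as CPM, the count of a gene relative to the scaled library total (TMM). The 7 genes together took 0.233% to 0.319% of the mRNA counts in YPD and 0.0294% to 0.0401% in SD. Their share of the footprints was 0.216% to 0.363% in YPD and 0.00491% to 0.0112% in SD.

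All 7 genes lie near chromosome ends and have a single coding exon in the RefSeq annotation of R64. FIT1 is at chrIV:1503314-1504900 on the reverse strand, 27.0 kb from the end of its chromosome. FIT2 (chrXV:1059531-1059992, forward) and FIT3 (chrXV:1060441-1061055, reverse) are neighbours that point at each other, 448 bases apart and 31.3 and 30.2 kb from the right end of chromosome XV. ENB1 is near the other end of that chromosome at chrXV:19491-21311 on the reverse strand. ARN1 (chrVIII:19088-20971) and ARN2 (chrVIII:8351-10213) are both on the reverse strand of the left arm of chromosome VIII, and ARN2 lies 8.35 kb from the end. SIT1 is at chrV:27657-29543 on the forward strand. The coding sequences of the 4 transporters were 54.8% to 63.2% identical to each other, and that of FIT2 was 50.2% identical to FIT3. FIT1 came to 26.8% with FIT2 and 33.5% with FIT3. It has 1587 coding bases against 462 and 615, and unmatched length lowers the identity. These values therefore do not rank the FIT genes by likeness. The sequences before the start codons gave 47.7% to 52.7% for transporter pairs and 51.5% to 58.9% for FIT pairs. The 50.2% of FIT2 and FIT3 is thus no sign of likeness. All windows of 28 nt, about the length of a footprint, were unique in the genome for FIT2 and the transporters, against 96.3% for FIT3 and 81.0% for FIT1, so that counting of uniquely mapped reads leaves out some reads of FIT1.

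The upstream sequences of the 7 genes share the site that Aft1 and Aft2 are known to bind, and the site nearest each start codon is shown for that reason. The 7 letters TGCACCC, which hold the CACCC core, were searched on both strands in the 500 bases before each start codon. Each line gives the gene, the distance of the site from the start codon, the R64 coordinates and the strand printed, 5′ to 3′, with the motif in capitals and 10 flanking bases on each side.
FIT1, 176 to 182 bases before the start codon, chrIV:1505066-1505092, forward strand: ttcattttttTGCACCCtttcctagaa
FIT3, 178 to 184 bases before the start codon, chrXV:1061223-1061249, forward strand: cccattttttTGCACCCtttcctagaa
FIT2, 125 to 131 bases before the start codon, chrXV:1059390-1059416, reverse strand: ctaattatacTGCACCCagttagattc
ARN1, 254 to 260 bases before the start codon, chrVIII:21215-21241, reverse strand: tttatcaaaaTGCACCCataaaagcag
ARN2, 441 to 447 bases before the start codon, chrVIII:10644-10670, forward strand: aactaagaacTGCACCCattttctgat
SIT1, 182 to 188 bases before the start codon, chrV:27459-27485, reverse strand: cgaaccagatTGCACCCtcaaatgtgt
ENB1, 131 to 137 bases before the start codon, chrXV:21432-21458, reverse strand: ggcttacaatTGCACCCctctgtggct

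All 7 genes held the motif, which occurred in 139 of 6005 such windows over the genome (2.32%). FIT2 had 4 sites, FIT1, FIT3 and ENB1 had 2 each, and ARN1, ARN2 and SIT1 had 1 each, while 12 windows of the genome (0.200%) had at least 2. The printed stretches of FIT1 and FIT3 were identical at 25 of 27 bases, and their other sites also lay at nearly the same distance, 278 to 284 and 279 to 285 bases before the start codon. The shorter core CACCC alone was found in 33.4% of the windows. A match is a description of the sequence, and binding was not measured here.

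The first comparison asked how expression of these genes differed between SD and YPD. All 7 were lower in SD at the level of mRNA and of footprints. The mRNA of FIT2 and FIT3 was 21.9-fold and 16.8-fold lower, and that of the other 5 genes from 3.39-fold (ARN1) to 5.44-fold (SIT1) lower. Footprints fell further, FIT1 left aside, from 6.88-fold for SIT1 to 329.9-fold for FIT3. FIT1 was left with 10 footprints over the 4 SD libraries, on which its still larger fitted change (log2 fold change −8.53) rests. In RNA-Seq 11.9% of 5966 genes tested passed the test in the lower direction and 14.1% in the higher direction, and in Ribo-Seq 11.3% and 14.3% of 5369 genes. The median log2 fold change of the 7 genes was −2.26 in RNA-Seq and −5.51 in Ribo-Seq, beside medians of 0.0040 and −0.0047 over all genes tested. The amount of total mRNA per cell was not measured, so that each change is relative to the other genes of the library.

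**Figure D1:**
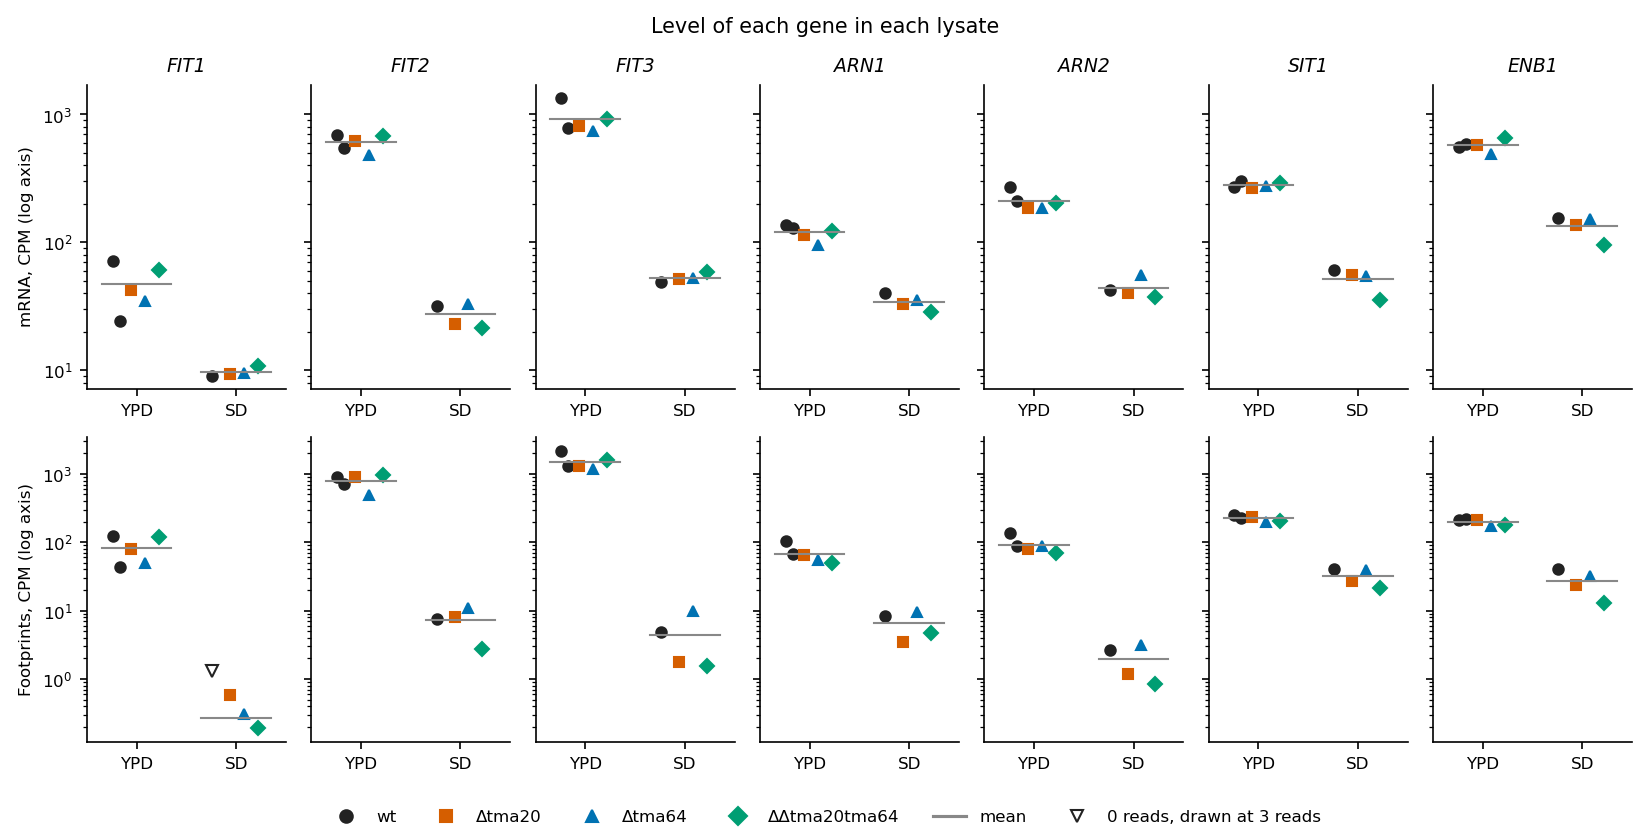
CPM of each gene in each lysate (upper row mRNA, lower row footprints, log axes), with YPD on the left and SD on the right of each panel, a symbol for each strain and grey lines at the mean of 5 or 4 lysates. The media do not overlap for any gene, and the drop is larger for footprints of FIT1 (82.4 to 0.270 CPM on average) than for its mRNA (46.9 to 9.71 CPM). The open triangle is a library with 0 reads, drawn at the level of 3 reads.

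FIT3 was the most abundant of the 7 genes in YPD. Its mRNA stood at 1336 CPM in WT1, 781 in WT2, 810.4 in Δtma20, 743 in Δtma64 and 925 in ΔΔtma20tma64. In SD it stood at 49.1 CPM in wt, 52.6 in Δtma64, 52.1 in Δtma20 and 58.2 in ΔΔtma20tma64. The SD lysates were thus alike, whereas WT1 was above the other YPD lysates. FIT3 footprints were at 2170.0 CPM in WT1, 1306 in WT2, 1325 in Δtma20, 1190.0 in Δtma64 and 1584 in ΔΔtma20tma64. In SD they dropped to 4.82 CPM in wt, 9.74 in Δtma64, 1.75 in Δtma20 and 1.57 in ΔΔtma20tma64, the 2 lysates without TMA20 being the lowest. The SD value of Δtma20 rested on 3 counts and that of wt on 11. The log2 fold change in SD was −4.07 ± 0.19 (SE) for mRNA (adjusted p = 4.4e-07) and −8.37 ± 0.66 for footprints (adjusted p = 0.00101).

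FIT2, which is next to FIT3 and the shortest of the 7 genes, had nearly as much mRNA per length. Its mRNA was at 689.6 CPM in WT1, 547 in WT2, 625 in Δtma20, 482 in Δtma64 and 685 in ΔΔtma20tma64, and in SD at 31.6 in wt, 33.2 in Δtma64, 23.1 in Δtma20 and 21.6 in ΔΔtma20tma64. Footprints were at 900.3 CPM in WT1, 704 in WT2, 891 in Δtma20, 491 in Δtma64 and 976 in ΔΔtma20tma64. Δtma64 was the lowest YPD lysate in both assays. Footprints in SD came to 7.45 CPM in wt, 11.03 in Δtma64, 8.19 in Δtma20 and 2.79 in ΔΔtma20tma64. The log2 fold change was −4.45 ± 0.18 for mRNA (adjusted p = 2.6e-07) and −6.84 ± 0.59 for footprints (adjusted p = 0.00135).

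FIT1 was far less abundant than the other mannoprotein genes and of the 7 genes it differed most between the wild-type cultures in both assays. Its mRNA was at 72.2 CPM in WT1, 24.3 in WT2, 42.5 in Δtma20, 34.9 in Δtma64 and 60.8 in ΔΔtma20tma64, a ratio of 2.97 between WT1 and WT2. In SD the 4 lysates ranged from 9.10 to 10.8 CPM. The footprints repeated the YPD pattern with 123 CPM in WT1, 43.5 in WT2, 78.6 in Δtma20, 50.0 in Δtma64 and 118 in ΔΔtma20tma64. In SD hardly any were left: wt had 0 counts, Δtma20 had 1, Δtma64 had 4 and ΔΔtma20tma64 had 5. The 0 counts of wt in SD allow up to 1.31 CPM (3 counts at this depth). Over all SD libraries there were 10 footprints against 2788 in YPD, a ratio of 361 after scaling, with an exact 95% interval of 196 to 754 that covers counting error only. The fitted log2 fold change of −8.53 ± 0.75 (adjusted p = 8.3e-04) rests on those few counts, and that of the mRNA was −2.26 ± 0.29 (adjusted p = 5.0e-04).

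Among the transporters ENB1 had the most mRNA, and in every lysate its footprint CPM was below its mRNA CPM. The mRNA was at 562 CPM in WT1, 591 in WT2, 578 in Δtma20, 489 in Δtma64 and 649 in ΔΔtma20tma64, against 156 in wt, 152 in Δtma64, 136 in Δtma20 and 94.7 in ΔΔtma20tma64 in SD. Footprints in YPD were at 209.7 CPM in WT1, 216 in WT2, 211 in Δtma20, 170.4 in Δtma64 and 180.0 in ΔΔtma20tma64, a narrow range. In SD they were at 40.8 CPM in wt, 31.9 in Δtma64, 23.4 in Δtma20 and 12.9 in ΔΔtma20tma64. The fold changes were −2.09 ± 0.15 for mRNA (adjusted p = 1.2e-05) and −2.92 ± 0.26 for footprints (adjusted p = 3.3e-04) on the log2 scale.

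SIT1, the ferrioxamine transporter gene, was the steadiest in YPD, with mRNA at 269 CPM in WT1, 301 in WT2, 265 in Δtma20, 277 in Δtma64 and 289.6 in ΔΔtma20tma64. In SD its mRNA was at 60.7 CPM in wt, 54.3 in Δtma64, 55.7 in Δtma20 and 35.4 in ΔΔtma20tma64. The ΔΔtma20tma64 lysate was the lowest in SD. Its footprints in YPD were at 250.2 CPM in WT1, 229 in WT2, 238 in Δtma20, 197 in Δtma64 and 205 in ΔΔtma20tma64, and in SD at 40.8 in wt, 39.8 in Δtma64, 27.5 in Δtma20 and 21.2 in ΔΔtma20tma64. Both assays changed by a similar amount, −2.44 ± 0.13 for mRNA (adjusted p = 1.1e-06) and −2.78 ± 0.15 for footprints (adjusted p = 1.5e-07). SIT1 kept the highest footprint level per length of the 7 genes in SD, 17.1 ± 5.06 CPM per kb of coding length (SD of 4 lysates), though its range overlapped that of FIT2 (15.9 ± 7.40).

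ARN1 and ARN2, the 2 transporter genes of chromosome VIII, differed in how far their footprints fell. ARN1 mRNA was at 138 CPM in WT1, 130.3 in WT2, 113 in Δtma20, 95.5 in Δtma64 and 123 in ΔΔtma20tma64, and in SD at 40.0, 35.5, 33.1 and 28.7 CPM in wt, Δtma64, Δtma20 and ΔΔtma20tma64. ARN2 mRNA was at 273 CPM in WT1, 211 in WT2, 187 in Δtma20, 186 in Δtma64 and 202 in ΔΔtma20tma64, and in SD at 42.1, 56.0, 40.0 and 37.4 CPM in the same order. WT1 thus stood above the other YPD lysates for ARN2, as it did for FIT3. ARN1 footprints came to 103 CPM in WT1, 66.9 in WT2, 64.9 in Δtma20, 55.8 in Δtma64 and 49.8 in ΔΔtma20tma64 in YPD and to 8.33 in wt, 9.66 in Δtma64, 3.51 in Δtma20 and 4.67 in ΔΔtma20tma64 in SD. ARN2 footprints came to 137 CPM in WT1, 88.8 in WT2, 78.6 in Δtma20, 87.0 in Δtma64 and 70.5 in ΔΔtma20tma64 in YPD and to 2.63 in wt, 3.20 in Δtma64, 1.17 in Δtma20 and 0.841 in ΔΔtma20tma64 in SD, of which Δtma20 rested on 2 counts. In both genes the SD lysates without TMA20 had the fewest footprints. The log2 fold changes of ARN1 were −1.76 ± 0.11 for mRNA (adjusted p = 2.5e-06) and −3.13 ± 0.23 for footprints (adjusted p = 9.4e-06). Those of ARN2 were −2.25 ± 0.14 (adjusted p = 3.1e-06) and −5.51 ± 0.30 (adjusted p = 2.5e-06).

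For all 7 genes and both assays the 4 SD lysates lay below the 5 YPD lysates, with p = 0.00794 in the exact two-sided permutation test of the mean log2 CPM, the smallest that 4 against 5 lysates can give. The share of all genes whose lysates separate in this way was not counted, for either assay or for their ratio. The drop was seen within each of the 4 strains. Without the 2 SD lysates that had the shallowest footprint libraries, an alternative added after seeing the data, all 7 genes still passed in RNA-Seq, whereas in Ribo-Seq only ARN1, ARN2 and SIT1 did. The fitted footprint changes of the other 4 genes were about as large as before (−3.10 for ENB1 to −8.59 for FIT1), with adjusted p-values of 0.083 to 0.109. In that fit wt and Δtma20 were left in YPD alone, so the medium term rests on the 4 lysates of Δtma64 and ΔΔtma20tma64.

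**Figure D2:**
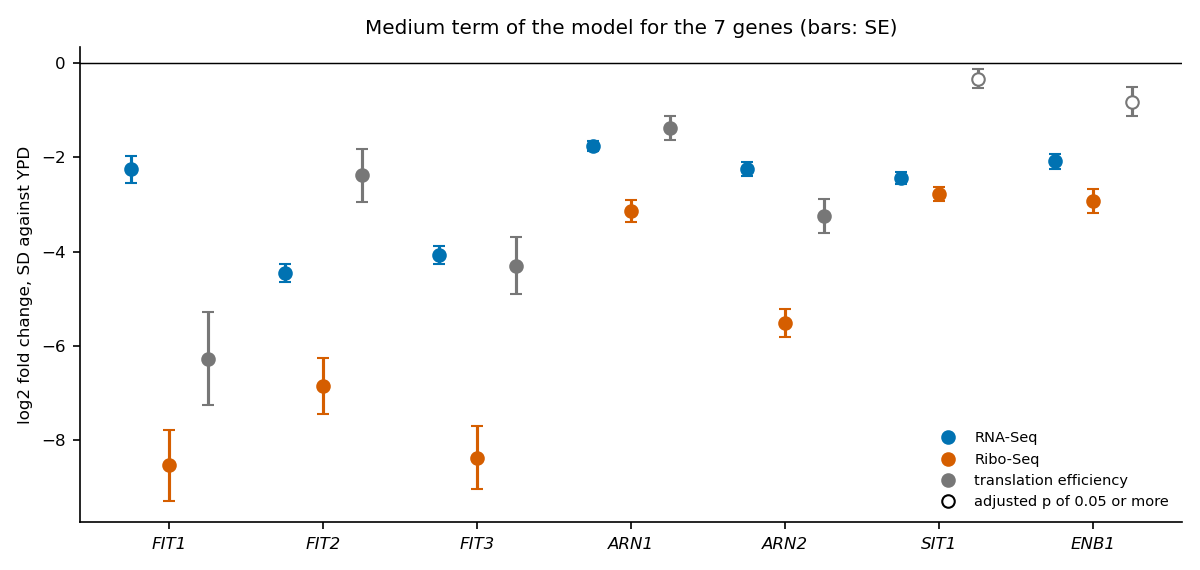
Log2 fold change in SD against YPD with its SE from edgeR for mRNA (blue), footprints (orange) and translation efficiency (grey). All points for mRNA and footprints are below 0, and the open points of SIT1 (−0.33) and ENB1 (−0.82) for translation efficiency did not pass the test.

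The order of the levels per kb of coding length differed between media. In YPD the mRNA order was FIT3 (1494 ± 394 CPM per kb, SD of 5 lysates), FIT2 (1311 ± 195), ENB1 (315 ± 31.8), SIT1 (149 ± 7.94), ARN2 (114 ± 19.2), ARN1 (63.7 ± 8.73) and FIT1 (29.6 ± 12.2). FIT3 and FIT2 overlapped in range, as did SIT1 and ARN2, and the other neighbours in that order did not. In SD the mRNA of FIT3 (86.2 ± 6.18 CPM per kb) was still the highest but overlapped that of ENB1 (74.0 ± 15.4), and FIT2 (59.3 ± 12.7) overlapped ENB1. FIT1 remained the lowest at 6.12 ± 0.458 CPM per kb. Footprints per kb in YPD were led by FIT3 (2463 ± 640.2) and FIT2 (1715 ± 424), both far above SIT1 (119 ± 11.8) and ENB1 (108 ± 11.4). In SD the footprint order was SIT1, FIT2, ENB1, FIT3, ARN1, ARN2 and FIT1, in which the first 5 overlapped from neighbour to neighbour while ARN2 (1.05 ± 0.608) and FIT1 (0.170 ± 0.154) lay apart.

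Translation efficiency, the ratio of footprint CPM to mRNA CPM in the same lysate, was compared next. It fell in SD for 5 of the 7 genes, FIT1, FIT2, FIT3, ARN1 and ARN2, beside 2.41% of 5935 genes tested in that direction and 5.04% in the higher direction. In YPD the mannoprotein genes had ratios above 1, with 1.74 ± 0.193 for FIT1, 1.65 ± 0.0434 for FIT3 and 1.29 ± 0.166 for FIT2 (SD, n = 5). The transporters were below 1 in every YPD lysate, with 0.801 ± 0.106 for SIT1, 0.564 ± 0.123 for ARN1, 0.432 ± 0.0573 for ARN2 and 0.346 ± 0.0395 for ENB1. The FIT genes and the transporters thus did not overlap in YPD.

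In SD the ratio of FIT3 was 0.0981 in wt, 0.185 in Δtma64, 0.0337 in Δtma20 and 0.0269 in ΔΔtma20tma64, a log2 change of −4.30 ± 0.60 (adjusted p = 0.00242). ARN2 came to 0.0625, 0.0571, 0.0292 and 0.0225 in the same order of strains, a change of −3.25 ± 0.36 (adjusted p = 1.3e-04). For both genes the lysates without TMA20 were again the lowest. FIT2 came to 0.236, 0.332, 0.354 and 0.129 (−2.38 ± 0.56, adjusted p = 0.0292), and ARN1 to 0.208, 0.272, 0.106 and 0.163 (−1.37 ± 0.25, adjusted p = 0.00398). FIT1, with its 10 SD footprints, ranged from 0 to 0.0620 and had the largest fitted change (−6.27 ± 0.98, adjusted p = 0.00429). These 5 genes fell in each of the 4 strains.

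SIT1 and ENB1 did not pass in the main edgeR fit. SIT1 had ratios of 0.672 in wt, 0.733 in Δtma64, 0.493 in Δtma20 and 0.600 in ΔΔtma20tma64 in SD, which overlapped its YPD range of 0.707 to 0.930 (−0.33 ± 0.21, adjusted p = 0.372, exact permutation p = 0.0397). ENB1 stood at 0.262, 0.210, 0.172 and 0.136 in the same order, all below its YPD range of 0.277 to 0.373 (−0.82 ± 0.31, adjusted p = 0.126, exact permutation p = 0.00794). With the lysate as a block, which uses the pairing of both assays, ENB1 passed with −0.80 (adjusted p = 4.2e-04), and 6 of the 7 genes were then called. Leaving out wt in SD, whose footprint library is shallow, kept FIT3, ARN1 and ARN2 only. That fit has wt in YPD alone, so wt no longer informs its medium term. FIT2 also lost its call without WT1, WT2 or either Δtma20 lysate. FIT1 lost it without either ΔΔtma20tma64 lysate, and ENB1 passed in both of those fits. Leaving out either lysate of a mutant takes that strain out of the medium term, so both fits compare the same strains. No gene of the 7 passed without both shallow SD lysates, where the term rests on Δtma64 and ΔΔtma20tma64 only. The changes there ranged from −1.19 (ARN1) to −6.37 (FIT1) among the 5 genes called in the main fit.

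**Figure D3:**
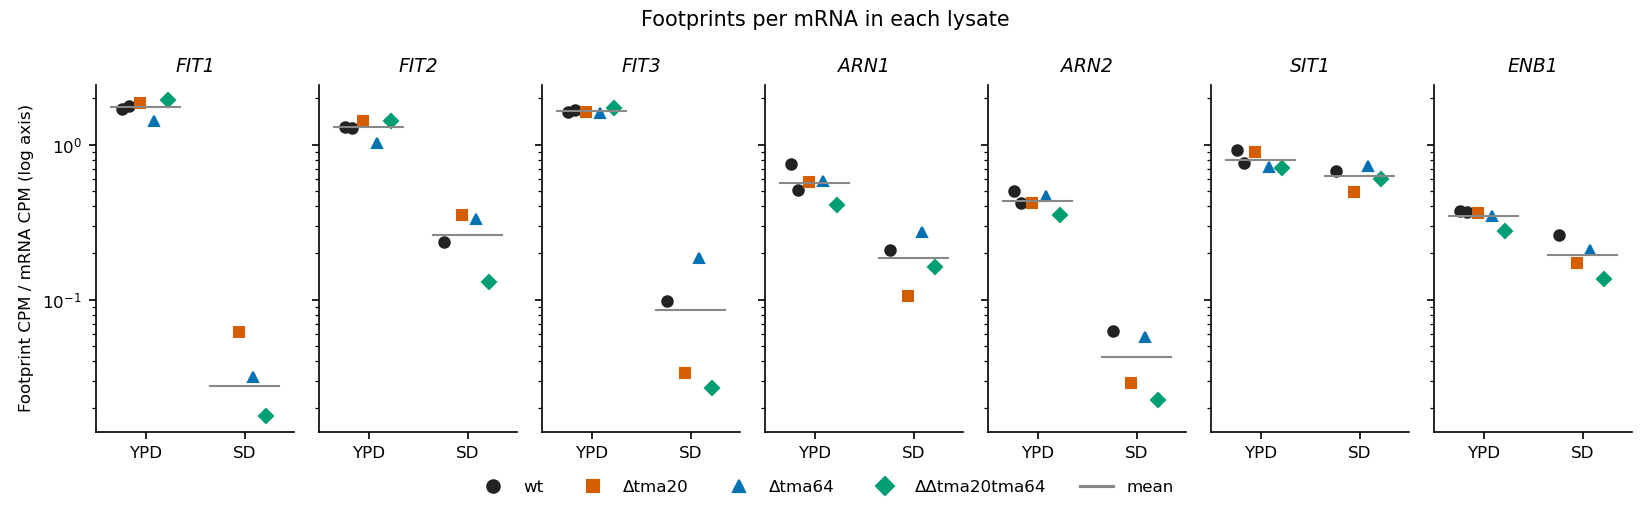
Ratio of footprint CPM to mRNA CPM in each lysate (log axis), with YPD on the left and SD on the right, a symbol for each strain and grey lines at the mean. The SD values of FIT1, FIT2, FIT3, ARN1, ARN2 and ENB1 lie below all YPD values, whereas SIT1 overlaps, and the ratio of FIT1 in wt in SD is 0 and is not drawn.

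The other genes of iron handling were examined by role to place the 7 genes. The list for reductive uptake, the route that reduces ferric iron at the cell surface and imports it without a siderophore, moved the same way. This list also holds FRE3 and FRE4, reductase genes for siderophore iron, and the copper genes CCC2 and ATX1. Of its 9 genes 8 were lower in RNA-Seq and 9 in Ribo-Seq, with median log2 fold changes of −1.44 and −1.81. FRE1, which encodes the main surface ferric and cupric reductase, was lower by −3.53 ± 0.17 for mRNA (adjusted p = 6.7e-07) and −5.16 ± 0.20 for footprints (adjusted p = 1.1e-07). FRE2, a second reductase gene, was lower by −2.19 ± 0.15 for mRNA (adjusted p = 5.5e-06), and its footprints dropped from 77 to 278 counts per library in YPD to at most 9 in SD. FET3, the gene of the multicopper oxidase that works with the permease Ftr1, was lower by −1.47 ± 0.11 for mRNA (adjusted p = 1.6e-05) and −1.69 ± 0.08 for footprints (adjusted p = 2.1e-09). In translation efficiency 2 of the 9 were lower, FRE2 with −3.53 ± 0.49 (adjusted p = 3.8e-04) and FRE1 with −1.62 ± 0.28 (adjusted p = 0.00354).

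Genes that act on iron inside the cell moved less. Of 12 such genes 8 were lower in RNA-Seq, and 7 were lower and 2 higher in Ribo-Seq, with medians of −0.42 and −0.41. TIS11, which encodes an mRNA-binding protein that brings down transcripts of iron-using proteins when iron is scarce, was lower by −2.84 ± 0.12 for mRNA and −2.49 ± 0.17 for footprints (adjusted p = 2.6e-07 and 1.2e-06). ISU2, a scaffold gene of iron-sulfur cluster assembly, was lower by −1.23 ± 0.11 and −1.38 ± 0.12 (adjusted p = 4.4e-05 and 1.7e-06). FRE6, a reductase gene of the vacuole, and SMF3, a vacuolar iron exporter gene, were lower by −0.90 ± 0.09 and −0.83 ± 0.10 for mRNA (adjusted p = 1.1e-04 and 3.3e-04). The 2 genes with more footprints were CCC1, the importer of iron into the vacuole (0.45 ± 0.08, adjusted p = 0.00131), and ISU1, the other scaffold gene (0.50 ± 0.11, adjusted p = 0.00484), which was also higher in translation efficiency (0.76 ± 0.16, adjusted p = 0.00934).

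Neither activator gene, AFT1 or AFT2, passed in mRNA. The medium term for mRNA was −0.19 ± 0.14 for AFT1 (adjusted p = 0.344) and for AFT2 −0.25 ± 0.14 (adjusted p = 0.225). AFT1 footprints were lower by −0.77 ± 0.10 (adjusted p = 7.0e-05), while those of AFT2 did not pass (−0.30 ± 0.12, adjusted p = 0.0981). Of the 9 regulator genes 2 were higher and 3 lower in RNA-Seq, beside 14.1% and 11.9% of all genes tested. In Ribo-Seq 1 was higher and 2 were lower, beside 14.3% and 11.3%. GRX4, a glutaredoxin gene whose product holds Aft1 inactive in iron-replete cells, was higher by 0.44 ± 0.08 for mRNA and 0.39 ± 0.11 for footprints (adjusted p = 0.00351 and 0.0198). YAP5, an activator of genes for high iron, was lower by −0.51 ± 0.10 and −0.59 ± 0.14 (adjusted p = 0.00591 and 0.00764). None of the 9 passed in translation efficiency by edgeR, with 3 at an unadjusted p under 0.05.

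As a list, other cell wall mannoprotein genes did not follow the FIT genes in mRNA or footprints. Of 11 such genes 2 were higher and 2 lower in RNA-Seq, and 1 of the 10 tested was lower in Ribo-Seq, with medians of 0.01 and −0.05. In translation efficiency 0 of the 11 passed, though 9 had values below 0. The median there was −0.35, beside 0.028 over all genes tested. CWP2, a major wall protein gene, was higher by 0.60 ± 0.10 (adjusted p = 0.00274) and CCW12 by 0.35 ± 0.11 (adjusted p = 0.0380) for mRNA. TIR1, an anaerobic and cold-induced wall gene, was lower by −2.21 ± 0.35 for mRNA and −3.11 ± 0.48 for footprints (adjusted p = 0.00164 and 0.00879). DAN1, another anaerobic wall gene, was lower in mRNA by −3.36 ± 0.83 (adjusted p = 0.0151). Both were highest in WT1, with 754 mRNA counts of TIR1 and 176 of DAN1 there against at most 178 and 24 in the other YPD libraries. GEX1 and GEX2, glutathione exchanger genes of the same transporter family, were too low to test, except GEX2 in RNA-Seq (−0.07 ± 0.42, adjusted p = 0.915) and in the fit of translation efficiency (0.71 ± 0.85, adjusted p = 0.671).

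**Figure D4:**
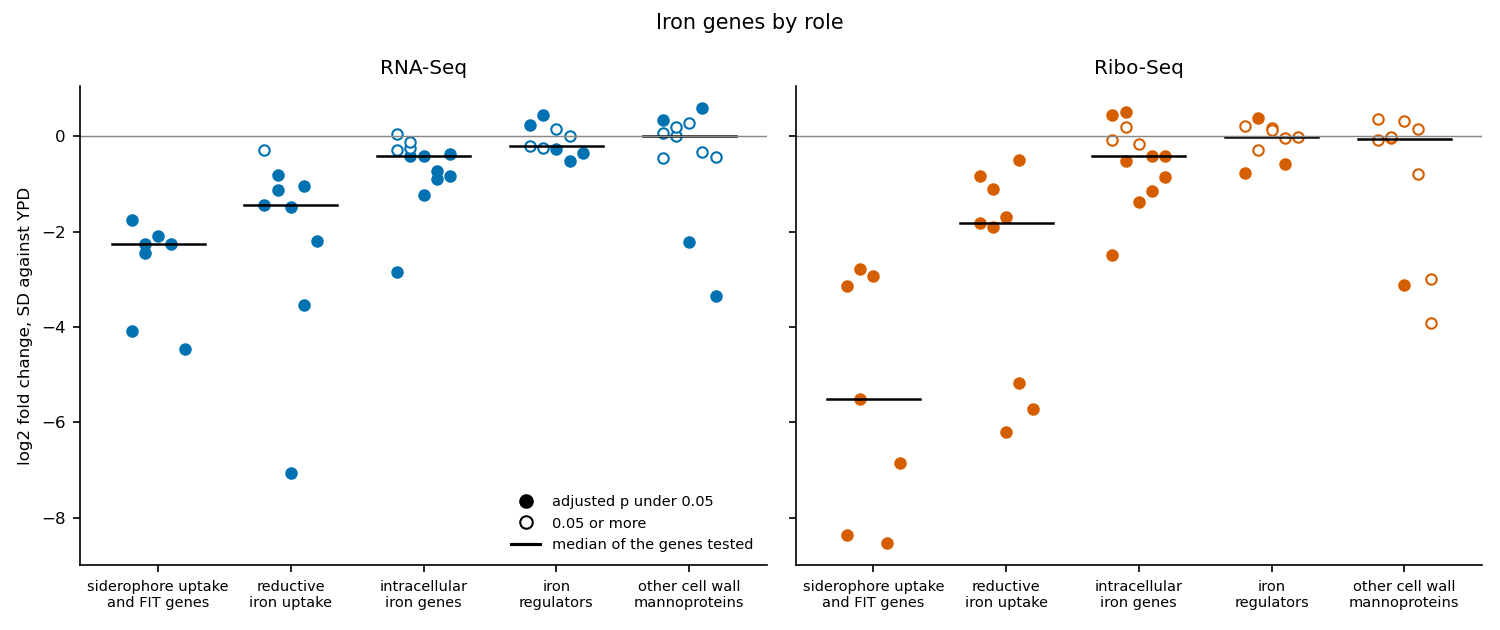
Log2 fold change in SD against YPD of each tested gene, by role, in RNA-Seq (left) and Ribo-Seq (right). Filled points passed at an adjusted p of 0.05, and black lines are medians, which lie at −2.26 and −5.51 for the siderophore uptake and FIT genes, −1.44 and −1.81 for reductive uptake and near 0 for regulators and other mannoproteins.

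The genes next to the 7 were examined because of their place near chromosome ends. Of 12 neighbours 10 could be tested in RNA-Seq, where 1 was higher and 2 were lower. The largest change was that of FRE5, a predicted reductase gene that is divergent from FIT3 and starts 508 bases from it and that also belongs to the list for reductive uptake. It had 209 to 497 mRNA counts per YPD library and 0 to 5 in SD, and 81 to 176 footprints against 0 to 8 (fitted log2 fold changes −7.07 ± 0.35 and −6.21 ± 0.45, adjusted p = 6.8e-07 and 1.1e-06, which rest on those few SD counts). AVT2, whose end lies 253 bases from that of SIT1, was lower by −0.36 ± 0.11 (adjusted p = 0.0391) for mRNA, and HSP31, beside FIT1, was higher by 0.90 ± 0.10 (adjusted p = 1.9e-04). Among the 7 others EFM1, divergent from ARN1, and HPA3, which ends upstream of SIT1, had values of 0.25 ± 0.08 (adjusted p = 0.0503) and 0.10 ± 0.12 (adjusted p = 0.549).

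The genes whose profile was most like that of the 7 over the 9 lysates were found by Pearson's r with the mean of the standardized log2 CPM, among genes whose mean log2 CPM reached 3 (5377 for mRNA and 4848 for footprints). In RNA-Seq these were PHM6 (r = 0.999), PHO89 (0.996), SPL2 (0.995), PHO84 (0.995) and VTC4 (0.994). PHO84 and PHO89 encode phosphate transporters, VTC4 encodes the polyphosphate polymerase and SPL2 a regulator of phosphate uptake. In Ribo-Seq they were PHO84 (0.997), the vacuolar transporter gene VMR1 (0.996), the low-affinity iron transporter gene FET4 (0.996), the copper transporter gene CTR1 (0.995) and FRE1 (0.993). These values describe 9 lysates that fall into 2 media, so that any gene with a steady difference between SD and YPD scores highly.

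The second question was whether the loss of TMA20 or TMA64 changed these genes. In the model of both deletions and medium none of the 7 passed for the loss of TMA20 by edgeR in RNA-Seq (0.0838% of all genes passed), Ribo-Seq (3.95%) or translation efficiency (0.0674%). At an unadjusted p under 0.05 there were 0, 2 and 0 of the 7, and DESeq2 called 0, 1 (ARN2 in Ribo-Seq) and 0. The loss of TMA64 gave 0 of 7 in the same 3 measures (0.0168%, 0.0559% and 0.0168% of all genes), with 0 at an unadjusted p under 0.05 and 0 by DESeq2. In Ribo-Seq the values for TMA20 ranged from −0.61 ± 0.21 (ARN2, adjusted p = 0.143) to 0.45 ± 0.49 (FIT1, adjusted p = 0.696) and those for TMA64 from −0.36 ± 0.20 (ARN1, adjusted p = 0.911) to 0.02 ± 0.49 (FIT3, adjusted p = 0.994). FIT1 passed for TMA20 in Ribo-Seq when WT1 was left out.

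The effect of TMA20 was then compared between media. All 7 genes had a negative interaction of TMA20 loss with SD in Ribo-Seq, that is, fewer footprints in SD relative to YPD where TMA20 was lacking, and 5 had an unadjusted p under 0.05. The shares of all genes with a negative value or with such a p are not given, so these 2 counts have nothing to be set against. Only ENB1 passed, with −1.20 ± 0.21 (adjusted p = 0.0242), beside 0.112% of 5369 genes. The values for SIT1 (−0.81 ± 0.19, adjusted p = 0.246), ARN2 (−1.35 ± 0.45, adjusted p = 0.583), FIT2 (−2.05 ± 0.56, adjusted p = 0.535) and FIT3 (−2.33 ± 0.69, adjusted p = 0.718) did not. The median over the 7 was −1.20, beside −3.1e-04 over all genes. The call for ENB1 was lost when WT2, Δtma64 in SD, wt in SD, Δtma20 in YPD or either ΔΔtma20tma64 lysate was left out, an alternative added after seeing the data, and its value ranged from −0.79 without ΔΔtma20tma64 in SD (adjusted p = 1.00) to −1.35.

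The single lysates gave these values in turn. ENB1 footprints were at 40.8 CPM in wt and 31.9 in Δtma64, against 23.4 in Δtma20 and 12.9 in ΔΔtma20tma64, whereas in YPD the 2 lysates without TMA20 (211 and 180.0 CPM) lay within the range of the others (170.4 to 216). FIT3, ARN1, ARN2, SIT1 and ENB1, 5 of the 7 genes, had both TMA20-lacking SD lysates below both others in Ribo-Seq, beside 20.3% of all genes tested. The pair without TMA20 holds both the shallowest footprint library and the deepest one. FIT1 and FIT2 overlapped, since FIT2 had 8.19 CPM in Δtma20 and 7.45 in wt.

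Within SD alone the model of both deletions used 4 lysates, 1 culture of each strain, and left 1 residual degree of freedom. In that fit 5 of the 6 genes tested were called lower in footprints where TMA20 was lacking, beside 3.13% of 5336 genes in that direction. ENB1 was lower by −1.13 ± 0.21 (adjusted p = 9.9e-06), FIT3 by −2.47 ± 0.44 (adjusted p = 8.5e-06), SIT1 by −0.79 ± 0.19 (adjusted p = 0.00156), FIT2 by −1.42 ± 0.36 (adjusted p = 0.00597) and ARN1 by −1.08 ± 0.35 (adjusted p = 0.0412). ARN2 had −1.80 ± 0.61 (adjusted p = 0.0590) and FIT1 had too few counts to be tested. The footprints in Δtma20 in SD came to 3 counts for FIT3, 6 for ARN1 and 2 for ARN2. For FIT2, Δtma20 (8.19 CPM) was above wt (7.45 CPM), so its call rests on ΔΔtma20tma64 (2.79 CPM) against Δtma64 (11.03 CPM). In RNA-Seq within SD, ENB1 (−0.44 ± 0.09, adjusted p = 2.4e-04), SIT1 (−0.37 ± 0.12, adjusted p = 0.0237) and FIT2 (−0.54 ± 0.18, adjusted p = 0.0280) were lower, beside 4.79% of 5903 genes. Within YPD alone 0 of the 7 were called by edgeR in either assay, with FIT2 (0.51) and ARN2 (−0.44) at an unadjusted p under 0.05 in Ribo-Seq, where 0.494% (Ribo-Seq) and 0.0173% (RNA-Seq) of all genes passed in the lower direction.

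**Figure D5:**
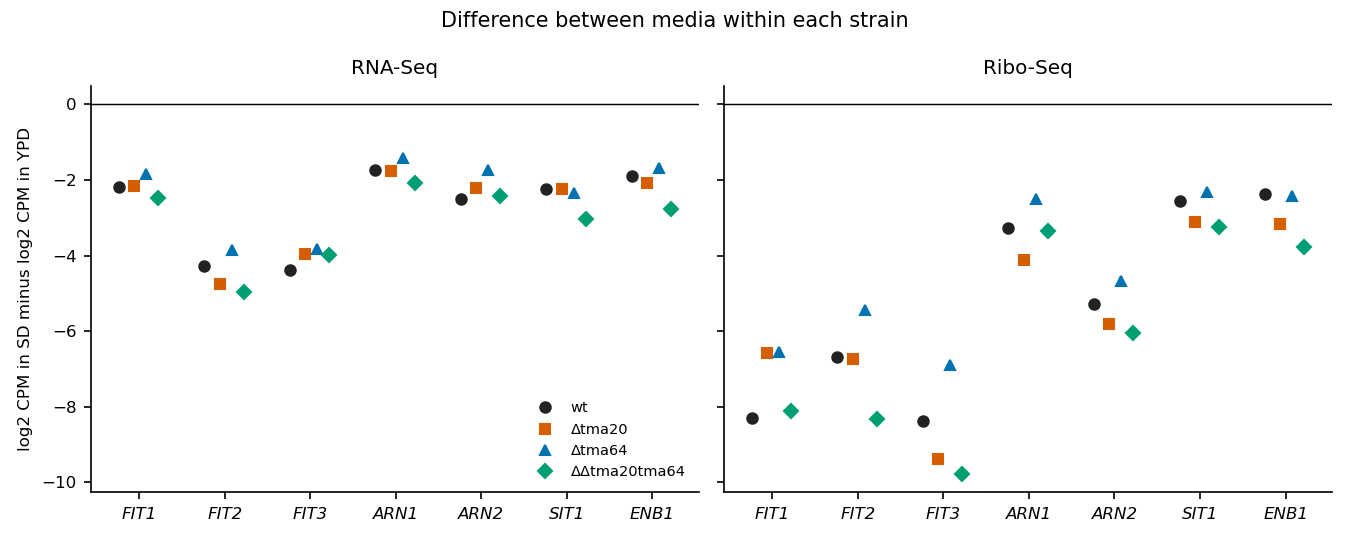
Log2 CPM in SD minus log2 CPM in YPD within each strain for mRNA (left) and footprints (right), where each point rests on 1 SD lysate and 1 YPD lysate (2 for wt). All points are below 0, and for footprints of every gene but FIT1 both strains without TMA20 lie below wt and Δtma64. The margin is small for FIT2 (−6.72 in Δtma20 and −6.70 in wt) and for ARN1 (−3.35 in ΔΔtma20tma64 and −3.28 in wt). The share of all genes with this order of strains was not counted. The footprint values of FIT1 depend on the prior count of 2, since SD libraries held 0 to 5 reads.

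The remaining interactions gave no call among the 7. For TMA20 by medium in RNA-Seq 0% of 5966 genes passed, and ENB1 (−0.63 ± 0.21) and FIT2 (−0.75 ± 0.23) had an adjusted p of 1.00 each and were the 2 of the 7 with an unadjusted p under 0.05. For TMA64 by medium 0% of the genes passed in either assay, and for TMA20 by TMA64 0% passed in RNA-Seq and 0.149% in Ribo-Seq. In these last 4 tests 0 of the 7 had an unadjusted p under 0.05, and DESeq2 called 0 of the 7.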

How the data were processed

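The study's authors trimmed the reads with cutadapt 1.18 and mapped them to the R64-1-1 assembly with STAR 2.5.3a, as its methods and the submitters' processing notes state. The deposited values are raw counts of uniquely mapped reads per gene, made by the authors for each strand and both together, with no normalization. Sense-strand counts entered the main fits. The series table held the same counts as the 18 library tables (0 cells differed). Rows without a gene name (a median of 23.6% of the mRNA reads and 1.09% of the footprints were on no feature) and 413 other rows were left out. Coordinates and sequences came from the RefSeq files of R64, in which 6007 of the 6713 open reading frames were found by locus tag. The files hold no coordinates to compare with that build.

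Genes that passed filterByExpr (minimum count 10) were scaled by TMM and tested with edgeR 4.0.16 (robust quasi-likelihood test, R 4.3.3), with Benjamini-Hochberg adjustment over all genes tested and a threshold of 0.05. The medium was tested beside a strain term, and each deletion beside the other and the medium, with interactions added to that model. Translation efficiency was tested as the interaction with assay over 18 libraries. The SE was derived from the log2 fold change and F statistic. Lysates of different strains served as replicates, so p-values do not cover variation between cultures of 1 mutant. WT1 and WT2 differed by more than sampling noise (chi-square per degree of freedom 17.9 for mRNA, 13.1 for footprints). The exact permutation test used mean log2 CPM with a prior count of 2 over 4 against 5 lysates. It is given for the medium only, since the groups with and without a deletion mix both media. Intervals are exact at 95%.

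The extraction protocol states that each lysate gave both libraries, which pairs the assays. Deviations from the medium means correlated within each lysate (r = 0.208 to 0.431 over 5367 genes). Correlations between the assays of different lysates were not computed, so these values do not test the pairing.

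The 7 genes, the gene lists and the alternatives were chosen with earlier results of these data known. Named genes were all 7 members, up to 4 genes that passed from each list with AFT1 and AFT2, the neighbours, and the 5 genes most alike in each assay. Genes named beside these (EFM1, HPA3, CCC1, ISU1 and others with their own values) were chosen after their values were seen. Alternatives were DESeq2 1.42.0, RLE factors, no filter, unstranded counts, single media, another model, the block and leaving out lysates. The main edgeR fits, other than TMA64 by medium, were tested on simulated data.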

Additional observations from a re-analysis of the deposited data

Results flagged for a closer look

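ARN2 stood apart in WT1, with 273 CPM of mRNA and 137 CPM of footprints, both higher than in the other 4 YPD lysates by more than Dixon's 95% limit. The translation efficiency of ENB1 in ΔΔtma20tma64 in YPD (0.277) was apart on the low side. These were 3 of 42 groups of values examined, and chance flags about 1 group in 20.

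The effect of TMA20 on ENB1 footprints differed between media by a test of the interaction itself (log2 value −1.20, adjusted p = 0.0242). The call was lost in 6 of the 9 fits that left out 1 lysate, with adjusted p-values of 0.0638 to 1.00, and the value was −0.79 without ΔΔtma20tma64 in SD.

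Reads on the strand opposite to the gene, which only the alternative with unstranded counts included, were present for FIT2 (median 48 counts) and SIT1 (median 37 counts) in all 9 RNA-Seq libraries. For FIT2 they came to 0.567% to 1.2% of the counts of the gene in YPD (20 to 66 reads per library) and 16.6% to 25.5% in SD (48 to 72 reads). For SIT1 they came to 0.650% to 1.47% in YPD (12 to 37 reads) and 6.03% to 23.5% in SD (39 to 92 reads). The shares in SD also reflect the lower counts of both genes on their own strand. FIT3 and AVT2 lie downstream of FIT2 and SIT1 on that opposite strand.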

How the results depend on the processing

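The 7 lower calls in RNA-Seq held under all alternatives run, and those in Ribo-Seq under all but the fit without both shallow SD lysates, which called 3. In translation efficiency 5 calls became 6 with the lysate as a replicate block and 0 without both shallow SD lysates, and leaving out 1 lysate gave 3 to 5. For the loss of TMA20, SD alone gave 3 calls in RNA-Seq, 5 in Ribo-Seq and 1 (FIT3) in translation efficiency. In that last fit 3 of 5915 genes were called in either direction. DESeq2 gave 1 in Ribo-Seq, and leaving out 1 lysate gave 0 to 1 in Ribo-Seq. For the loss of TMA64, SD alone gave 1 call (SIT1) in RNA-Seq, beside 293 of 5903 genes called in either direction. The block changed no call for either loss. For TMA20 by medium in Ribo-Seq, leaving out 1 lysate gave 0 to 2 calls, the second being FIT3 without WT1. Single-gene values were recomputed for the medium in the 7 genes and for this interaction in ENB1 and SIT1, and none of those changed sign under the alternatives run. The causes were not tested. The few SD footprints, 10 for FIT1 and 72 for ARN2 over 4 libraries, limit the values of these genes. In Δtma20 in SD, FIT3 rested on 3 footprints and ARN1 on 6, which limits those values too.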
